A study of Mus musculus with 11 samples.

Results

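The genes of T-type calcium channels and of pacemaker channels were examined in neurons of the primary sensory thalamic nuclei of newborn mice. The members were the T-type pore genes Cacna1g, Cacna1h and Cacna1i and the hyperpolarization-activated cyclic nucleotide-gated (HCN) subunit genes Hcn2, Hcn3 and Hcn4, chosen by name and found through their Ensembl gene identifiers. They are 6 of the 54752 genes in the count tables, and all 6 passed the filter on low counts that left 15907 genes for testing. RNA was sequenced from 4 libraries of the dorsolateral geniculate nucleus (dLG, vision), 4 of the ventral posteromedial nucleus (VPM, which handles facial touch) and 3 of the ventral medial geniculate nucleus (MGv, hearing). All animals were ICR/CD-1 mice at postnatal day 0 with the genotype Gbx2CreER-IRES-EGFP/+::R26lsl-tdTomato/+, so strain, age and genotype were the same in all groups. In this line a tamoxifen-dependent Cre, made where Gbx2 is active, switches on tdTomato in early postmitotic thalamic neurons, and cells were sorted on their red fluorescence. The sorted cells therefore carry 1 Gbx2 copy with the CreER insertion, and a library holds the cells of 4 pooled brains. Replicates are separate pools by their titles, and nothing says whether pools of different nuclei shared brains, so p-values measure the spread between these libraries.

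T-type channels open at voltages near rest, pass a brief calcium current and must be hyperpolarized before they can open again. HCN channels open on hyperpolarization and carry a depolarizing cation current, and cyclic AMP shifts most of them toward easier opening. In mature relay neurons the interplay of both currents sets the switch between single spikes and low-threshold bursts and gives the rhythm of slow thalamic oscillations.

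Total counts lay between 10175653 and 23559130 per library, with the MGv libraries the shallowest. Levels are given in counts-per-million (CPM), in which 3 counts corresponded to 0.129 to 0.292. The 6 relay neuron markers were present in each library and summed to 1895 to 3016 CPM, but they were not even between nuclei. All 6 were called in dLG against MGv, 4 of them higher in dLG (all genes 16.1% called and 8.61% higher in dLG). In VPM against MGv 5 of the 6 were called (all genes 19.0%), and in dLG against VPM 2 (all genes 10.7%). Slc17a6, the vesicular glutamate transporter of relay neurons, lay between 278 and 642 CPM, whereas the transcription factor gene Prox1 was at 4.08 to 13.1 CPM in MGv and 47.3 to 165 CPM elsewhere. The transporter that defines GABAergic neurons, Slc32a1, had 0 counts in the dLG and MGv libraries and at most 1 count in a VPM library. The summed level of 12 markers of the reticular nucleus and prethalamus ranged from 0.430 to 3.32 CPM in dLG, from 4.33 to 16.0 CPM in VPM and from 4.21 to 10.7 CPM in MGv. Of these, 5 were tested. In dLG against VPM 2 were called, both higher in VPM, and in dLG against MGv 1 was called, higher in MGv. In VPM against MGv 0 were called (all genes 10.7%, 16.1% and 19.0% in this order). Isl1, at 0 to 28 counts, was lower in dLG than in both other nuclei. The log2 fold change was −6.54 over VPM (edgeR adjusted p = 0.0242) and −7.22 over MGv (edgeR adjusted p = 0.0105). Gad1 had 1 to 55 counts, Gad2 0 to 29 and Sst 0 to 257 per library. The summed level of 10 genes of the dissociation response was 413 to 761 CPM in VPM, 691 to 1123 CPM in dLG and 754 to 1102 CPM in MGv, and its part in the differences of VPM was not tested. Of the 11 libraries, 4 stood apart from the rest. Libraries dLG replicate 2, VPM replicate 3 and MGv replicate 1 had 3.05 to 5.56 CPM of the chaperone gene Hspa8, against 159 to 581 CPM elsewhere. VPM replicate 3 was also the lowest VPM library for 4 of the 6 members, and its TMM scaling factor (trimmed mean of M values) was 0.854. In dLG replicate 3, red blood cell RNA was high, with 347 CPM of the beta-globin gene Hbb-bs against 0 to 8.06 CPM elsewhere, and no member gained or lost a call without this library. Results that move with these libraries are given below with and without them. In such sorted bulk RNA, fewer cells with a transcript and less transcript per cell cannot be told apart.

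Among the T-type genes, Cacna1i was higher in MGv than in either other nucleus, while Cacna1g and Cacna1h did not pass the test in any comparison. Cacna1i encodes the T-type pore with the slowest kinetics, best known from the GABAergic neurons of the reticular nucleus. Its level was 11.2, 7.72 and 12.1 CPM in MGv replicates 1 to 3. The 4 dLG libraries held 3.77, 3.82, 4.58 and 4.92 CPM, and the 4 VPM libraries held 4.31, 4.24, 2.92 and 4.09 CPM. Every MGv library lay above every other library, with no overlap, and the dLG and VPM ranges overlapped. Mean and SD were 10.3 ± 2.29 CPM over the 3 MGv libraries, 4.27 ± 0.564 CPM over the 4 of dLG and 3.89 ± 0.656 CPM over the 4 of VPM. The change was 2.41-fold against dLG (log2 fold change dLG over MGv −1.27 ± 0.25 SE, edgeR adjusted p = 0.00405). It was 2.65-fold against VPM (log2 fold change VPM over MGv −1.40 ± 0.25 SE, edgeR adjusted p = 0.00234). These adjusted p-values come from edgeR's quasi-likelihood test with Benjamini-Hochberg adjustment over the 15907 genes, and a gene was called at an adjusted p under 0.1. The dLG and VPM levels of Cacna1i differed by 0.13 on the log2 scale, with a 95% interval from −0.37 to 0.64. The summed reticular and prethalamic markers given above overlapped between VPM and MGv. In dLG that sum (0.430 to 3.32 CPM) lay below every MGv library (4.21 to 10.7 CPM) and every VPM library (4.33 to 16.0 CPM). The summed markers of the oligodendrocyte lineage (6 genes) moved with Cacna1i, at 74.9 to 85.9 CPM in MGv and 12.5 to 43.4 CPM elsewhere. Most of that sum was Mbp (62.4 to 71.5 CPM in MGv), and the defining genes Sox10 and Olig2 had 0 counts in MGv. Single markers of other cells moved with it as well. Slc1a3, a glutamate transporter of astrocytes and radial glia, was at 45.5 to 90.3 CPM in MGv and 1.096 to 17.9 CPM elsewhere (11.3-fold against dLG and 10.1-fold against VPM, edgeR adjusted p = 0.00444 and 0.00626). The summed level of its list of 7 genes overlapped, at 76.2 to 192 CPM in MGv, 57.0 to 139.6 CPM in dLG and 86.8 to 151 CPM in VPM. Gfap had at most 1 count in an MGv library and at most 2 in any library. Of the same list, Aldoc was higher in MGv than in dLG (2.99-fold, edgeR adjusted p = 0.0178) but was not called in VPM against MGv. Aqp4, at 0 to 29 counts, was higher in MGv than in VPM (7.90-fold, edgeR adjusted p = 0.0686) but was not called in dLG against MGv. Gng8, a habenula marker, was at 11.7 to 34.3 CPM in MGv and 0.731 to 9.74 CPM elsewhere (11.02-fold and 4.27-fold, edgeR adjusted p = 0.000778 and 0.0155). The 7 habenula markers summed to 54.3 to 114 CPM in MGv, 33.7 to 57.4 CPM in dLG and 49.4 to 93.3 CPM in VPM. Tac2 had at most 1 count in any library. In dLG against MGv, Nwd2 of this list was also higher in MGv (2.94-fold, edgeR adjusted p = 0.00349). Chrna3 went the other way, higher in dLG (2.42-fold, edgeR adjusted p = 0.0403). Neither Nwd2 nor Chrna3 was called in VPM against MGv. Gbx2, whose locus drives the reporter, moved with Cacna1i too, at 272 to 333 CPM in MGv and 14.2 to 51.6 CPM elsewhere. Their part in the Cacna1i difference was not tested. Leaving out the 3 libraries low in Hspa8 gave log2 fold changes of −1.17 for dLG over MGv and −1.24 for VPM over MGv, and both stayed called.

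Cacna1i lies on chromosome 15 (chr15:80287238-80398279, plus strand, GRCm38, ENSMUSG00000022416). Promoter sequences of RefSeq for the same build were matched by symbol for 3 of the 6 members, namely Cacna1i, Hcn2 and Hcn4. They are shown because Cacna1i is the member whose level set a nucleus apart, beside the HCN genes with a matched entry. The windows are the 250 bases before the annotated start, 5′ to 3′ on the strand of the gene, at chr15:80286988-80287237 for Cacna1i, chr10:79716384-79716633 for Hcn2 and chr9:58822699-58822948 for Hcn4. Capitals mark every match, on either strand, to any of 5 searched motifs. The GC box, bound by Sp factors in many promoters, was searched as GGGCGG. The E box of basic helix-loop-helix factors was searched as CACGTG. The cyclic AMP response element was searched as TGACGTCA. The box bound by the general TATA factor was searched as TATAAA. The core site of Lef1 and Tcf7l2, factors known from thalamic neurons, was searched as CTTTGA. Matches may overlap or adjoin each other.
Cacna1i: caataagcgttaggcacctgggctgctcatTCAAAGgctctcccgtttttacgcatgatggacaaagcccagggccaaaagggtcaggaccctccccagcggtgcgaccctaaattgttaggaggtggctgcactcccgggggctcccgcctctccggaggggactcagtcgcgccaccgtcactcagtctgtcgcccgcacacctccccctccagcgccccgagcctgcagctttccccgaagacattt
Hcn2: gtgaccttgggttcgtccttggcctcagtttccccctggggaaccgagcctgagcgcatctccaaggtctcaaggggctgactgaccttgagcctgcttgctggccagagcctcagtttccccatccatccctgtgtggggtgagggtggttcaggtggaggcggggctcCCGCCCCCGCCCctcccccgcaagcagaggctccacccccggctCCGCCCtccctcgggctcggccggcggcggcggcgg
Hcn4: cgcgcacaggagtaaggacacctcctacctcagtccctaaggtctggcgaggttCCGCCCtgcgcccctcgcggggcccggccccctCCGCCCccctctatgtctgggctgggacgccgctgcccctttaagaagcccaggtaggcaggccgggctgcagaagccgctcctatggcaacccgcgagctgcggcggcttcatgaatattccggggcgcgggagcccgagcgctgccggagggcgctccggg

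The Cacna1i window had a single match, to the Lef/Tcf core, which 13.8% of 32851 promoter windows of this length hold. It had 0 GC boxes, a GC content of 62.4% and 16 CpG dinucleotides. The Hcn2 window had 3 GC boxes and a GC content of 70.4%, and the Hcn4 window had 2 GC boxes, a GC content of 71.2% and 25 CpG dinucleotides. A GC box was found in 32.7% of all windows, whose median GC content was 52.4% with a 90th percentile of 69.2%. Both HCN windows were thus above that percentile and the Cacna1i window below it. The E box, the cAMP response element and the TATA box were in none of the 3 windows, and in 6.02%, 1.55% and 12.4% of all windows. The RefSeq start of Hcn4 lies 463 bases from the start in the GENCODE annotation, so its window describes the RefSeq start. A match is a string of letters in the window and says nothing of binding.

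Cacna1g encodes the T-type pore that carries most of the low-threshold current of relay neurons. It was present in every library at 27.4 to 57.7 CPM (307 to 1213 counts). In dLG its levels were 33.9, 38.1, 29.7 and 39.1 CPM for replicates 1 to 4. In VPM they were 40.7, 37.2, 27.4 and 57.7 CPM, and in MGv 40.1, 42.7 and 29.8 CPM. The 3 nuclei overlapped throughout, and the VPM libraries held both the lowest and the highest level. Ordered by mean ± SD, VPM had 40.8 ± 12.6 CPM (n = 4), MGv 37.5 ± 6.79 CPM (n = 3) and dLG 35.2 ± 4.32 CPM (n = 4), and no neighbours in this order differed beyond their spread. The largest difference, dLG over VPM, was −0.21 ± 0.20 (SE) on the log2 scale (95% interval −0.65 to 0.23, edgeR adjusted p = 0.643). The gene lies at chr11:94408391-94474198 on the minus strand (ENSMUSG00000020866).

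Cacna1h encodes a T-type pore that is widespread in sensory neurons and sensitive to redox agents and zinc. In dLG it was at 23.0, 19.7, 21.8 and 28.0 CPM, in VPM at 17.7, 12.9, 14.8 and 23.2 CPM, and in MGv at 23.3, 24.7 and 19.3 CPM. The other 3 VPM libraries lay below all dLG and MGv libraries, and VPM replicate 4 lay among them. The difference of dLG over VPM was 0.43 ± 0.20 (SE) on the log2 scale, with a 95% interval from 0.0092 to 0.86 (edgeR unadjusted p = 0.0458, adjusted p = 0.233). Without VPM replicate 4 it was 0.61 and passed, with an edgeR adjusted p of 0.0884. VPM over MGv was −0.39 ± 0.21 (SE, edgeR adjusted p = 0.261), which became −0.57 without VPM replicate 4 (edgeR adjusted p = 0.0916). The gene lies at chr17:25374285-25433783 on the minus strand (ENSMUSG00000024112). An opposite-strand gene, Tpsg1, covers 1.62% of its exons and had 0 to 14 counts per library.

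**Figure D1:**
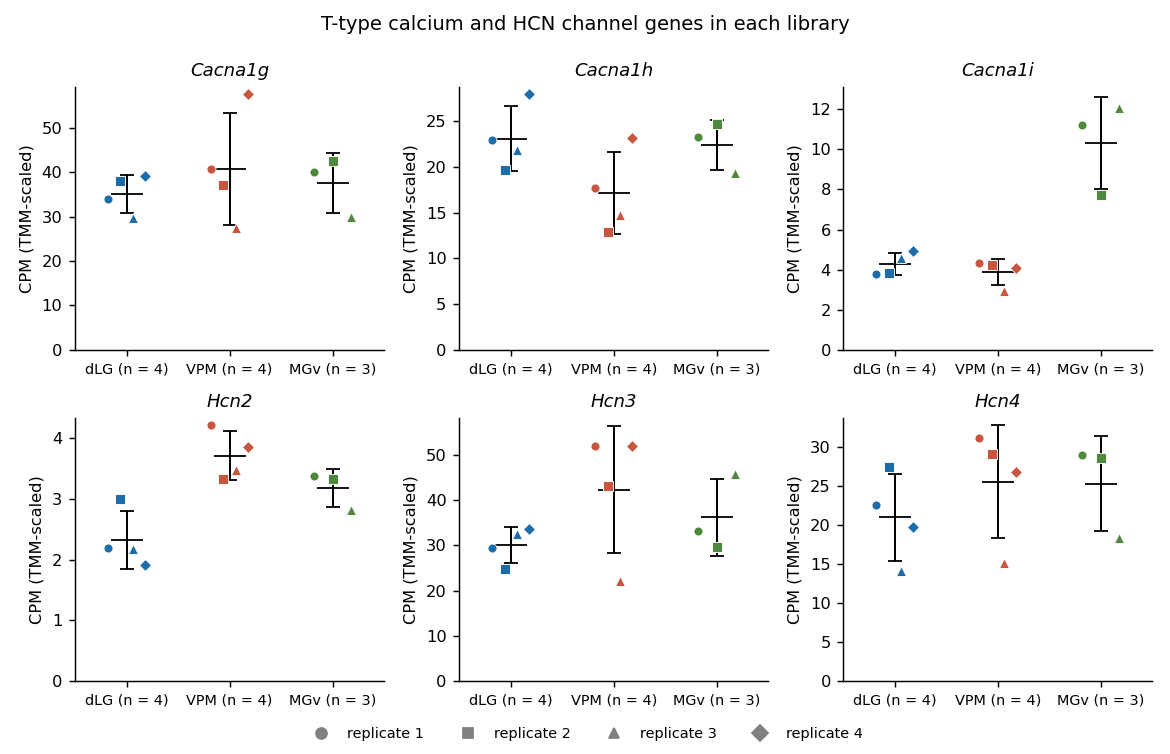
Levels of the 6 channel genes in TMM-scaled CPM, with 1 panel a gene and 1 point a library; horizontal bars are group means and whiskers 1 SD, and the shape of a point is its replicate number. The MGv libraries of Cacna1i (7.72 to 12.1 CPM) sit above all others, while the nuclei overlap for Cacna1g, Cacna1h, Hcn3 and Hcn4, and VPM replicate 3 (triangle) is the lowest VPM point for Cacna1g, Cacna1i, Hcn3 and Hcn4.

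Each HCN subunit gene had its lowest mean in dLG, but none passed the test in any comparison with all 11 libraries. Hcn2 encodes a subunit with a strong response to cyclic AMP that carries much of the pacemaker current of adult relay neurons. It was scarce at birth, at 2.19, 3.01, 2.18 and 1.91 CPM in dLG, 4.22, 3.33, 3.47 and 3.85 CPM in VPM and 3.38, 3.34 and 2.82 CPM in MGv, from 29 to 91 counts. All VPM libraries lay above all dLG libraries, and MGv overlapped with both. The log2 fold change of dLG over VPM was −0.68 ± 0.27 (SE, 1.598-fold, 95% interval −1.25 to −0.11) with an edgeR unadjusted p of 0.0234 and an adjusted p of 0.160. The tool and the libraries moved this value across the threshold. DESeq2 gave an adjusted p of 0.0700, and edgeR gave 0.0959 without dLG replicate 2 (log2 fold change −0.85). The gene lies at chr10:79716634-79736108 on the plus strand (ENSMUSG00000020331).

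Hcn3 encodes a subunit with slow opening and little response to cyclic AMP. Its levels were 29.4, 24.8, 32.5 and 33.6 CPM in dLG, 52.1, 43.3, 22.1 and 52.1 CPM in VPM, and 33.1, 29.7 and 45.9 CPM in MGv. VPM replicates 1, 2 and 4 exceeded every dLG library, whereas VPM replicate 3 was the lowest of all 11. With all libraries, dLG over VPM was −0.50 ± 0.24 (SE) on the log2 scale (95% interval −1.01 to 0.016, edgeR adjusted p = 0.264). Without VPM replicate 3 it was −0.70, with an edgeR adjusted p of 0.0191. The trend of all genes over exon length and GC content put that library at −0.19 on the log2 scale for genes like Hcn3 and at −0.43 to −0.45 for genes like the T-type members. With an offset for exon length and GC content in each library, Hcn3 was at −0.50 (edgeR adjusted p = 0.176). The gene lies at chr3:89146074-89160196 on the minus strand (ENSMUSG00000028051). The opposite-strand gene Pklr covers 17.1% of its exons, and without strand, reads in the shared stretch cannot be told apart. Pklr had 0 to 8 counts per library against 338 to 1124 for Hcn3.

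Hcn4 encodes the slowest HCN subunit, known from the sinoatrial node and from thalamic relay neurons. It was at 22.6, 27.5, 14.1 and 19.7 CPM in dLG, 31.2, 29.1, 15.1 and 26.8 CPM in VPM, and 28.9, 28.6 and 18.3 CPM in MGv. The 3 nuclei overlapped, with replicate 3 the lowest in each. The means ± SD were 20.9 ± 5.60 CPM for the 4 dLG libraries, 25.5 ± 7.21 CPM for the 4 VPM libraries and 25.3 ± 6.06 CPM for the 3 MGv libraries. The log2 fold change was −0.29 ± 0.25 (SE, edgeR adjusted p = 0.599) for dLG over VPM and 0.016 ± 0.28 (SE) for VPM over MGv. The gene lies at chr9:58823412-58863175 on the plus strand (ENSMUSG00000032338).

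**Figure D2:**
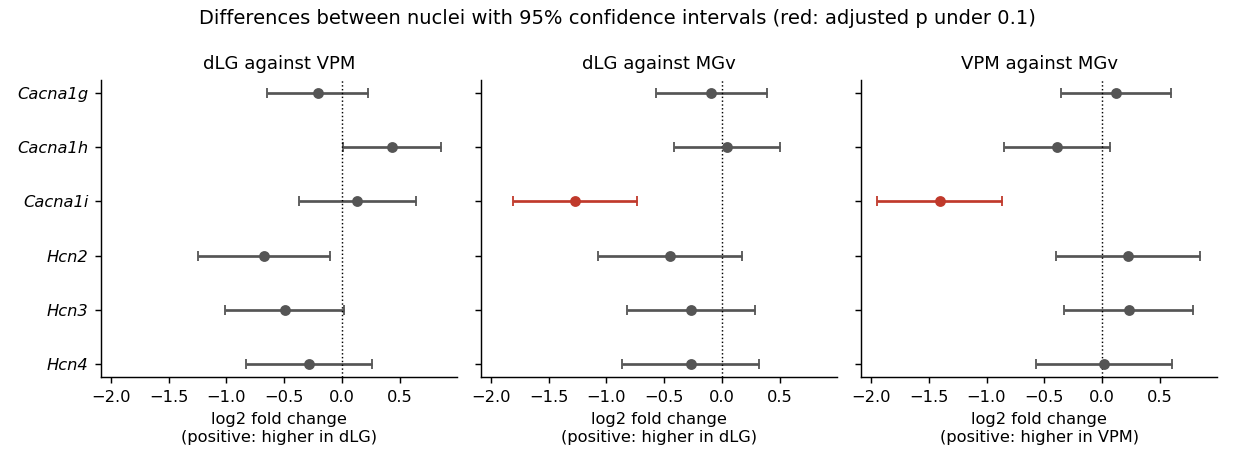
Log2 fold changes of the 6 channel genes in the 3 comparisons (points) with 95% confidence intervals (bars); positive values are higher in the nucleus named first, and red marks an edgeR adjusted p under 0.1. Cacna1i is red in both comparisons with MGv (−1.27 and −1.40), and the Hcn2 interval for dLG against VPM (−1.25 to −0.11) excludes 0 without passing adjustment.

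Counted over the members, dLG against VPM gave 0 of 6 calls with edgeR, while 10.7% of all tested genes were called. At an edgeR unadjusted p under 0.05 it gave 2 of 6 (all genes 20.4%), with DESeq2 1 of 6 (all genes 14.9%) and with limma voom 0 of 6 (all genes 13.1%). The dLG against MGv comparison gave 1 of 6, against 16.1% of all genes, and VPM against MGv gave 1 of 6, against 19.0%. Across all 3 nuclei 1 of 6 was called, against 24.2% of all genes. The edgeR calls with all 11 libraries were thus near or below the share of all genes in each comparison. Leaving out dLG replicate 2, VPM replicate 3 and MGv replicate 1 raised the dLG against VPM count to 3 of 6, all higher in VPM. In the same fit 16.1% of all genes were called, and 8.73% were called as higher in VPM. The 3 members were Hcn2 (−0.86, edgeR adjusted p = 0.0861), Hcn3 (−0.62, edgeR adjusted p = 0.0417) and Hcn4 (−0.63, edgeR adjusted p = 0.0887). When those libraries were kept with a covariate for them, Hcn2, Hcn3 and Hcn4 were not called (edgeR adjusted p = 0.107, 0.156 and 0.552). In that fit 15.0% of all genes were called.

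**Figure D3:**
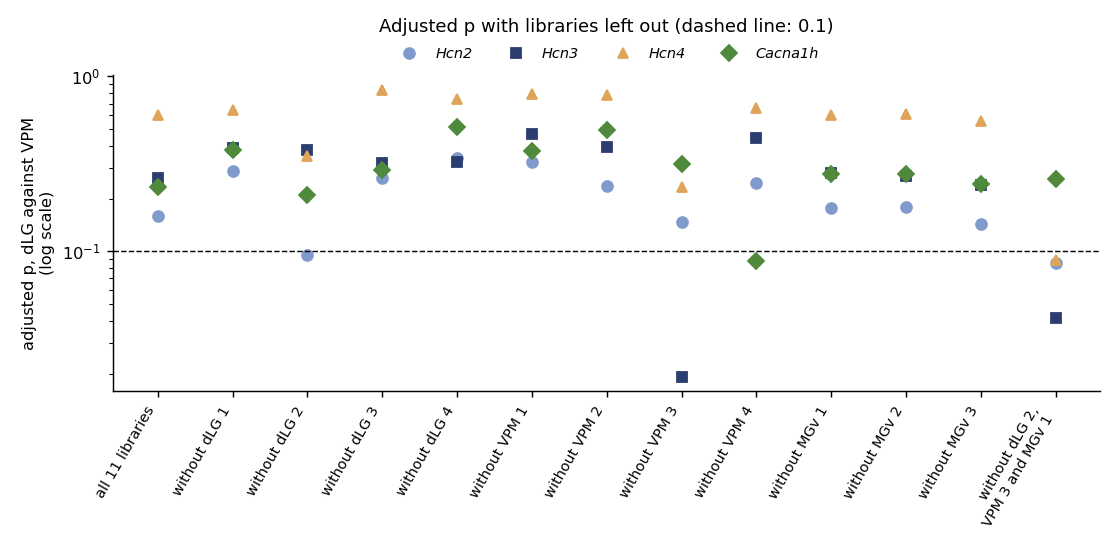
Adjusted p (log axis) for dLG against VPM of Hcn2, Hcn3, Hcn4 and Cacna1h with all 11 libraries, with each library left out in turn, and without the 3 libraries low in Hspa8; the dashed line is 0.1. All 4 genes are above the line with all libraries, Hcn3 falls to 0.0191 without VPM replicate 3, and the 3 HCN genes are below the line in the last column.

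Levels of different genes were compared per kilobase of exon. Hcn3 was the highest member at a median of 7.98 CPM per kilobase over the 11 libraries, and it exceeded Hcn4 in all 11, by 1.33 to 3.70 times. Hcn4 (median 4.38) and Cacna1g (3.76) overlapped, with Hcn4 higher in 7 of 11 libraries. Cacna1g exceeded Cacna1h (2.24) in all 11 libraries, and Cacna1h exceeded Hcn2 (1.04) in all 11. Hcn2 exceeded Cacna1i (0.437) in 9 of 11 libraries. The exceptions were both in MGv, where Hcn2 was higher in 1 of 3 libraries.

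Within the T-type family, Cacna1g made up 57.9 ± 6.53% of the counts per length over the 11 libraries (SD), which was the largest share in each library. The Cacna1i share was 15.2 ± 4.73% in MGv (SD, n = 3). In the other nuclei it was 6.93 ± 0.920% (dLG, n = 4) and 6.59 ± 1.27% (VPM, n = 4). Its lowest MGv share, 10.4%, was above the highest elsewhere, 8.24%. The Cacna1g share was 59.9 to 67.7% in VPM, 52.0 to 61.0% in dLG and 47.9 to 56.0% in MGv. The ratio of Cacna1g to Cacna1h per length, 2 genes of nearly equal exon length, was 2.22, 2.79, 1.79 and 2.40 in VPM. It was 1.42, 1.87, 1.31 and 1.35 in dLG and 1.66, 1.67 and 1.49 in MGv, and the dLG and VPM ranges crossed through dLG replicate 2 and VPM replicate 3, both low in Hspa8. In the HCN family Hcn3 took 63.8 ± 6.96% over all libraries, Hcn4 29.0 ± 6.13% and Hcn2 7.23 ± 1.93% (SD). These shares depended on the gene length used. With other lengths, no length or single libraries left out, the Hcn3 mean ranged from 57.1 to 66.1%. Under these alternatives the Hcn4 mean reached 39.0% in dLG, 35.9% in VPM and 39.3% in MGv. The Hcn2 mean fell to 4.35%, 5.60% and 4.93% in the same order, and Hcn3 kept the largest mean in each nucleus. The Hcn3 shares overlapped between nuclei, from 52.4 to 72.4% in dLG, 60.02 to 69.2% in VPM and 55.5 to 74.1% in MGv.

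**Figure D4:**
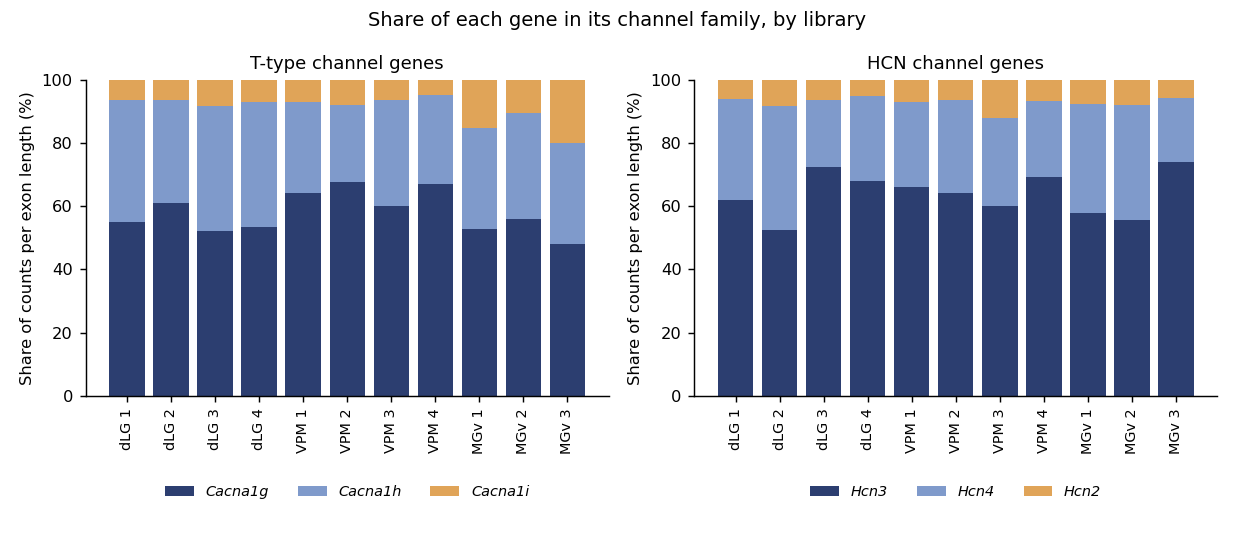
Share of each gene in the counts per exon length of its family (percent, stacked to 100), with 1 bar a library; T-type genes are on the left and HCN genes on the right. Cacna1g and Hcn3 take the largest share in each library, and the Cacna1i segment is widest in the 3 MGv libraries (10.4 to 19.9%).

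Over the 11 libraries, the members varied together unevenly. Pearson's r of log2 CPM was largest between Cacna1g and Hcn4 (0.73), and was 0.72 for deviations from the means of the nuclei. Cacna1i and Hcn3 had an r of 0.26 over all libraries but 0.83 for these deviations, and Cacna1g and Cacna1h had 0.37 and 0.74. All values share the libraries, their depth and their scaling, and the low-Hspa8 libraries contribute to them. Of 10481 genes with a mean of at least 5 CPM, those with the pattern most like that of Cacna1i were Sulf2 (r = 0.99) and BC043934 (r = 0.97). For Hcn2 they were Pcsk2 (0.96) and Cav2 (0.94), for Hcn3 Wdr35 (0.94) and Abcc8 (0.93), and for Hcn4 Paxip1 (0.93) and Clstn3 (0.93). For Cacna1g they were Rtel1 (0.93) and Atxn2l (0.91), and for Cacna1h Taf15 (0.93) and Afg3l1 (0.92). These are the highest of many correlations over 11 libraries and are given as a description.

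Among the partners and regulators of both channel families, Pex5l differed in all 3 comparisons. It encodes a cytoplasmic auxiliary subunit that controls trafficking and cyclic nucleotide response of HCN channels. Pex5l was at 33.2, 19.99, 20.3 and 20.97 CPM in VPM, 4.75, 8.03, 2.89 and 6.06 CPM in dLG, and 1.58, 0 and 1.56 CPM in MGv, where replicate 2 had no count. The 3 nuclei did not overlap, in the order VPM, dLG, MGv. VPM over MGv was 4.48 ± 0.62 (SE, 22.4-fold, edgeR adjusted p = 0.000287), dLG over VPM −2.11 ± 0.46 (SE, edgeR adjusted p = 0.0111) and dLG over MGv 2.37 ± 0.59 (SE, edgeR adjusted p = 0.0177). For the HCN genes themselves, the 95% intervals of VPM over MGv all included 0. They were −0.40 to 0.85 for Hcn2, −0.33 to 0.79 for Hcn3 and −0.58 to 0.61 for Hcn4, on the log2 scale.

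Klhl1, an actin-binding protein reported to raise T-type current, was at 6.24, 2.63 and 14.6 CPM in MGv, 2.09, 3.07, 1.05 and 1.85 CPM in VPM and 0.239 to 1.33 CPM in dLG. It was lower in dLG than in MGv (−3.38 ± 0.61 SE, edgeR adjusted p = 0.00214) and lower in VPM than in MGv (−1.94 ± 0.57 SE, edgeR adjusted p = 0.0379). The MGv and VPM ranges overlapped. Without MGv replicate 3 the dLG difference was −2.57 (edgeR adjusted p = 0.0180) and the VPM difference −1.12 (edgeR adjusted p = 0.284). Kctd3, an auxiliary protein of HCN3 channels, was lower in dLG than in VPM (−0.60 ± 0.17 SE, edgeR adjusted p = 0.0433) and MGv (−0.55 ± 0.18 SE, edgeR adjusted p = 0.0684). Usp5, an enzyme that removes ubiquitin from T-type channels, was lower in dLG than in MGv (−0.33 ± 0.11 SE, edgeR adjusted p = 0.0684). Those Kctd3 and Usp5 calls were lost with several single libraries left out, down to −0.43 without dLG replicate 1 for Kctd3 in dLG over MGv (edgeR adjusted p = 0.187) and −0.27 without MGv replicate 1 for Usp5 (edgeR adjusted p = 0.232). Of the 11 listed partners, 8 were tested. In dLG against VPM, 0 were higher in dLG and 2 in VPM, when 4.97% and 5.74% of all genes were called in these directions. In dLG against MGv, 1 was higher in dLG and 3 in MGv (all genes 8.61% and 7.49%). In VPM against MGv, 1 was higher in VPM and 1 in MGv (all genes 10.4% and 8.56%). Without dLG replicate 3, the library high in Hbb-bs, 1 partner was called for dLG against VPM (all genes 8.44%) and 2 for dLG against MGv (all genes 12.9%). The median log2 fold changes of the list were −0.47, −0.24 and 0.16 in this order, beside 0.0048, 0.015 and 0.022 over all genes.

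**Figure D5:**
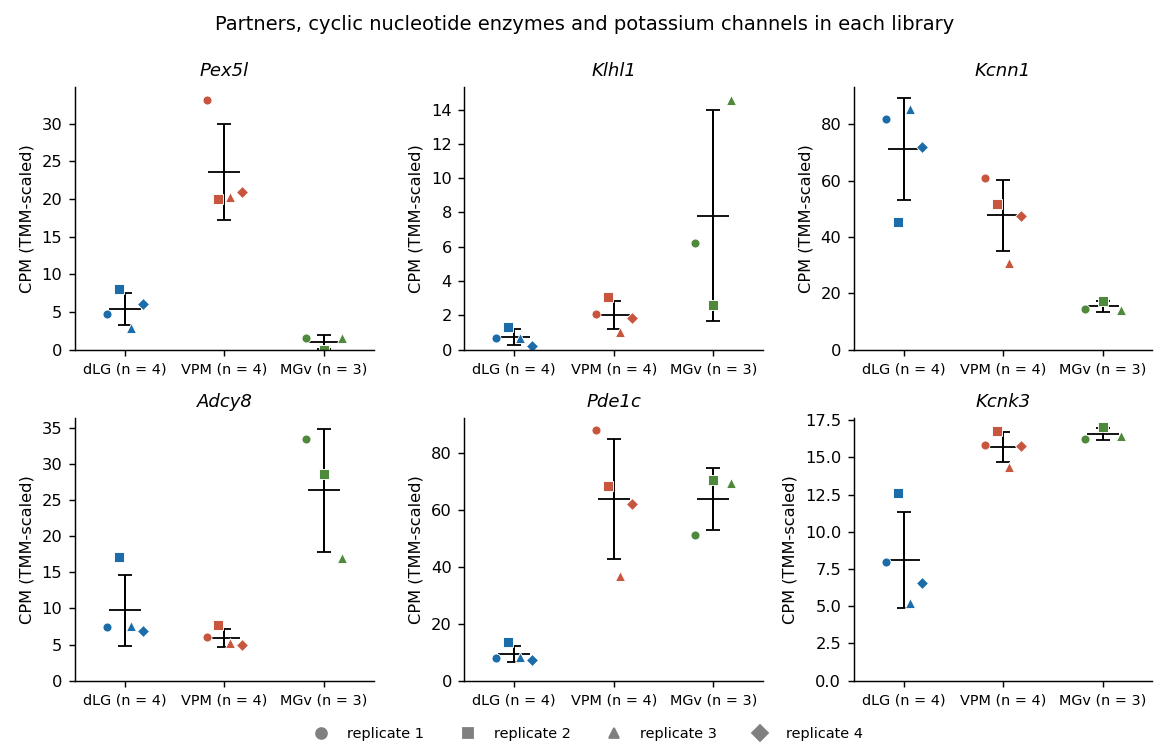
Levels of Pex5l, Klhl1, Kcnn1, Adcy8, Pde1c and Kcnk3 in TMM-scaled CPM, with 1 point a library, group means as bars and whiskers of 1 SD. Pex5l separates all 3 nuclei, Adcy8 is highest by mean in MGv, Pde1c and Kcnk3 are lowest in dLG, and Kcnn1 is lowest in MGv (14.2 to 17.5 CPM).

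Among the enzymes that make and break down cyclic nucleotides, the ligands of HCN channels, 7 to 9 of the 18 tested were called in each comparison. Adcy8, an adenylyl cyclase driven by calcium and calmodulin, was at 33.4, 28.6 and 16.9 CPM in MGv, 7.37, 17.1, 7.57 and 6.92 CPM in dLG and 4.99 to 7.70 CPM in VPM. It was higher in MGv than in dLG (dLG over MGv −1.43 ± 0.33 SE, edgeR adjusted p = 0.0108) and VPM (VPM over MGv −2.14 ± 0.34 SE, edgeR adjusted p = 0.000852), and dLG replicate 2, low in Hspa8, was the dLG library within the MGv range. Adcy7, a cyclase that calcium does not drive, was likewise highest in MGv, with 12.5 to 15.3 CPM and at most 6.02 CPM elsewhere (dLG over MGv −1.51 ± 0.26 SE, edgeR adjusted p = 0.00160). Adcy1, a further calcium-driven cyclase, was the most abundant cyclase named, with means ± SD of 239 ± 34.0 CPM for VPM (n = 4), 181 ± 26.8 CPM for MGv (n = 3) and 126 ± 37.1 CPM for dLG (n = 4). It was lower in dLG than in VPM (−0.93 ± 0.19 SE, edgeR adjusted p = 0.00900).

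Among the phosphodiesterases, Pde1c, which is activated by calcium and calmodulin, was lower in dLG than in both other nuclei. It had 8.04, 13.4, 8.39 and 7.25 CPM in dLG, 88.3, 68.3, 36.9 and 62.0 CPM in VPM and 51.4, 70.7 and 69.6 CPM in MGv. The log2 fold change was −2.78 ± 0.27 (SE, edgeR adjusted p = 2.61e-05) for dLG over VPM and −2.78 ± 0.28 (SE, edgeR adjusted p = 2.24e-05) for dLG over MGv. Pde4b, which breaks down cyclic AMP, was low in VPM, at 22.4 to 24.3 CPM against 51.0 to 74.8 CPM in dLG and 52.8 to 72.3 CPM in MGv (dLG over VPM 1.43 ± 0.15 SE, edgeR adjusted p = 4.58e-05). Pde7b, a further cyclic AMP enzyme, was higher in dLG (6.02 to 13.0 CPM) than in VPM (3.51 to 4.40 CPM) and MGv (0.601 to 2.72 CPM). Its fall from VPM to MGv (log2 fold change 1.31 ± 0.42 SE, edgeR adjusted p = 0.0545) was not called without MGv replicate 1 (0.91, edgeR adjusted p = 0.163) or without MGv replicate 2 (1.28, edgeR adjusted p = 0.128). Of the 19 listed genes 18 were tested. For dLG against VPM, 2 were higher in dLG and 6 in VPM (all genes 4.97% and 5.74%) and 10 were not called. For dLG against MGv, 3 were higher in dLG and 4 in MGv (all genes 8.61% and 7.49%) and 11 were not called. For VPM against MGv, 5 were higher in VPM and 4 in MGv (all genes 10.4% and 8.56%) and 9 were not called. The list medians were 0.14, −0.11 and 0.29 on the log2 scale.

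Of 22 other channels of relay-neuron excitability, all tested, Kcnn1 and Kcnd2 set MGv apart in opposite directions. Kcnn1, a calcium-activated potassium channel that T-type calcium entry can open, was at 82.1, 45.3, 85.4 and 71.9 CPM in dLG, 61.0, 51.7, 30.6 and 47.5 CPM in VPM and 14.5, 17.5 and 14.2 CPM in MGv. The MGv libraries lay below all others, with a log2 fold change of 2.21 ± 0.26 (SE, edgeR adjusted p = 8.83e-05) for dLG over MGv and 1.63 ± 0.26 (SE, edgeR adjusted p = 0.000842) for VPM over MGv. Kcnd2, the pore of a transient A-type potassium current, ran the other way, with 79.9 to 91.8 CPM in MGv, 39.5 to 66.7 CPM in VPM and 20.5 to 45.5 CPM in dLG (dLG over MGv −1.65 ± 0.26 SE, edgeR adjusted p = 0.000877). Its other comparisons were close to the threshold. The value for dLG over VPM was −0.85 ± 0.25 (SE, edgeR adjusted p = 0.0505) and VPM over MGv was −0.80 ± 0.26 (SE, edgeR adjusted p = 0.0586). With single libraries left out they ranged from −1.22 to −0.70 and from −0.95 to −0.71, and each call was lost without any of 5 libraries. The highest edgeR adjusted p-values were 0.151 without VPM replicate 1 (−0.70) for the former and 0.154 without MGv replicate 3 (−0.77) for the latter.

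Kcnk3, a potassium leak channel that opposes the resting HCN current, was at 7.98, 12.6, 5.23 and 6.59 CPM in dLG, 14.3 to 16.8 CPM in VPM and 16.2 to 17.0 CPM in MGv. It was lower in dLG than in VPM (−0.95 ± 0.23 SE, edgeR adjusted p = 0.0243) and in MGv (−1.03 ± 0.25 SE, edgeR adjusted p = 0.0156), with no overlap. Kcnk9, a leak channel of the same family, had 1 to 5 counts in dLG libraries, 2 to 34 in VPM and 0 to 14 in MGv. It was called in dLG against VPM (edgeR adjusted p = 0.0624), and the call was lost without any of several libraries, with an edgeR adjusted p of 0.163 without dLG replicate 4. Nalcn, the sodium leak channel, was lower in MGv (19.1 to 21.04 CPM) than in dLG (28.7 to 34.4 CPM) and VPM (25.9 to 38.0 CPM), with edgeR adjusted p-values of 0.0158 and 0.0149. Kcnd3, a second A-type pore, was higher in VPM than in MGv (0.95 ± 0.20 SE, edgeR adjusted p = 0.00756). Over the list of 22, dLG against VPM gave 2 higher in dLG and 5 in VPM, beside 10.7% of all genes called. The count was 4 in dLG and 3 in MGv for dLG against MGv (all genes 16.1%), and 5 in VPM and 3 in MGv for VPM against MGv (all genes 19.0%). The list medians of −0.025, 0.024 and −0.043 on the log2 scale were close to those of all genes. The count of 7 for dLG against VPM fell to 2 without dLG replicate 1, dLG replicate 3 or VPM replicate 2 (all genes 7.38%, 8.44% and 6.95%). The count of 8 for VPM against MGv fell to 3 without VPM replicate 2 (all genes 14.0%).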

How the data were processed

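Per the labels and methods of the study, total RNA of sorted neurons was amplified with the SMARTer Ultra Low kit, and single reads of 50 bases were sequenced. The authors trimmed the reads (cutadapt 2.3, Trim Galore 0.6.1), aligned them to mm10 (GRCm38) with STAR 2.7.0d and assigned them to Ensembl genes with featureCounts (Subread 1.6.4). What was deposited are raw read counts of genes, neither normalized nor filtered, with 1 table per library. Strand setting and treatment of multi-mapping reads are not given in the sources used here.

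Symbols, positions and exon lengths came from GENCODE M21 (GRCm38), which had a record for 54723 of 54752 identifiers. Counts were tested with edgeR 4.0.16 (R 4.3.3): filterByExpr kept 15907 of 33170 genes with at least 1 count, libraries were scaled by TMM, and all 11 entered a quasi-likelihood model with 3 group means. Tests were two-sided with Benjamini-Hochberg adjustment over all tested genes and a threshold of 0.1, the threshold of the study, which used DESeq2. The code was tested on simulated data, in which 64 to 71 of 15907 genes were changed at each fold in a comparison. There, 28.8 to 44.9% of 2-fold changes and 72.3 to 83.1% of 4-fold changes were called in the right direction, depending on the comparison. Of all calls, 7.04 to 13.7% were of unchanged genes. In the deposited data 1704 to 3016 genes were called in a comparison. The adjustment depends on the share of changed genes, so the simulated rates need not hold for these data. A gene that was not called may still differ. CPM are TMM-scaled, log2 CPM used a prior count of 2, and shares used counts per union exon length. Floors of 3 counts cover counting error only, since PCR copies were not told apart by molecular identifiers.

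The members, companion lists, marker lists and tests were chosen with earlier results of these data known. Named were all members, the 2 genes most correlated with each, and from each companion list up to 5 called genes by smallest p across the nuclei, plus Pex5l, Kcnk3, Kcnk9, Adcy1 and Adcy8; 1 further gene of that rule is not reported here. Mbp, Sox10, Olig2, Slc1a3, Gfap, Aldoc, Aqp4, Gng8, Tac2, Nwd2, Chrna3, Slc17a6, Prox1, Slc32a1, Gbx2, Hbb-bs and Hspa8 are named because of their values. Isl1, Gad1, Gad2 and Sst are named for the same reason. Alternatives were DESeq2 1.42.0, limma 3.58.1 (voom), DESeq2 size factors, total counts, no filter on counts, a minimum of 10 counts in all libraries, the replicate number as a block, only the nuclei compared, counts thinned to the smallest total, a covariate for or omission of the libraries low in Hspa8, an adjusted p under 0.05, other gene lengths, and each library left out. An offset for exon length and GC content, alone and with the block, was chosen after seeing the data.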

Additional observations from a re-analysis of the deposited data

Results flagged for a closer look

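In groups of 4 libraries, the highest or lowest library was compared with the spread of the rest by Dixon's ratio of its gap to the range against its 95% critical value. For the 6 members and 17 companion genes in dLG and VPM, 46 such sets were tested, and 4 passed, when chance alone would mark about 1 set in 20. Cacna1i in VPM was lowest in replicate 3, at 2.92 CPM against 4.09 to 4.31 CPM in the other VPM libraries. Pex5l in VPM was highest in replicate 1, at 33.2 CPM against 19.99 to 20.97 CPM. Adcy8 in dLG was highest in replicate 2, at 17.1 CPM against 6.92 to 7.57 CPM, and Kcnd2 in dLG was also highest in replicate 2, at 45.5 CPM against 20.5 to 22.5 CPM. Of these libraries, VPM replicate 3 and dLG replicate 2 were low in Hspa8, and its part in these values was not tested. Without VPM replicate 3, Cacna1i was still called in VPM against MGv (log2 fold change −1.29), and without dLG replicate 2, Adcy8 was called in dLG against MGv (−1.85).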

How the results depend on the processing

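Cacna1i stayed called in both comparisons with MGv under all 25 alternatives, with log2 fold changes of −1.44 to −1.11 for dLG over MGv and −1.57 to −1.16 for VPM over MGv. Counts of called members for dLG against VPM rose from 0 to 1 with DESeq2 (Hcn2) and with at least 10 counts in every library (Hcn2), and to 3 without the libraries low in Hspa8. That omission gave 2 members (Cacna1i, Hcn3) across the nuclei. With single libraries left out, the member counts ranged from 0 to 1 for dLG against VPM, 1 to 2 for VPM against MGv and 1 to 2 across the nuclei. The partner counts (2, 4 and 2 in the order of the comparisons) became 1 and 2 with total counts, which moved dLG over VPM by 0.10 on the log2 scale, and 1, 2 and 0 with at least 10 counts in every library, where fewer genes were tested. An adjusted p under 0.05 gave 2 partners for dLG against MGv, 2 other channels for dLG against VPM and 4 for VPM against MGv. The omission of the libraries low in Hspa8 gave 11 other channels for dLG against VPM, in place of 7, while the share of all genes called rose from 10.7% to 16.1%. With single libraries left out, partner counts ranged from 1 to 3, 2 to 4 and 1 to 2, and counts of other channels from 2 to 8 for dLG against VPM and 3 to 8 for VPM against MGv. In those fits 6.95 to 14.0%, 11.4 to 20.9% and 12.2 to 20.4% of all genes were called, in the order of the comparisons.

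Replicate numbers are shared between nuclei. Over 10 same-numbered pairs the mean correlation of deviations from the group means was 0.016 (−0.20 to 0.48), beside −0.0050 over 30 other pairs. Of 11 libraries, 4 correlated best with their own number. This mean over all tested genes cannot settle whether pools were paired. For Hcn4 and Cacna1g, but not for the other members, the lowest library had the same replicate number in each nucleus. With the replicate block, 2 members were called for VPM against MGv, Cacna1h (edgeR adjusted p = 0.0916) and Cacna1i. The block also gave 1 partner for VPM against MGv, as did the block with the offset for exon length and GC. Other channels numbered 4 for dLG against VPM and 5 for VPM against MGv. The share of all genes called with the block was 9.20% for dLG against VPM and 16.9% for VPM against MGv. With the block and the offset it was 17.5% for VPM against MGv.

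The uncalled differences near 0 changed sign. Cacna1g in dLG over MGv was 0.0090 with the offset for exon length and GC, and −0.24 to 0.0052 with single libraries left out. Cacna1g in VPM over MGv was −0.031 with the replicate block and −0.096 to 0.27 with single libraries left out. Cacna1h in dLG over MGv was −0.093 with the replicate block and −0.065 to 0.11 with single libraries left out. Hcn4 in VPM over MGv was −0.028 with total counts, −0.015 with the replicate block, −0.064 with counts thinned to the smallest total, and −0.16 to 0.20 with single libraries left out. The causes of these changes were not tested. Hcn2, with 29 to 91 counts, and Cacna1i, with 47 to 149, had the least depth of the members.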
